A study of Mus musculus with 6 samples.

Results

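The spliceosome genes of mouse macrophages that carry a chimeric antigen receptor were compared between 3 CAR-Ms samples and 3 CAR-Trem2-Ms samples. The genes are the 130 of 22063 whose KEGG pathway annotation in the deposited table names the spliceosome, after 17 of the 147 annotated genes were left out because their symbols start with Ddx, Dhx, Hspa or Eif. They fall into 22 genes of small nuclear ribonucleoprotein (snRNP) proteins, 11 genes of serine/arginine-rich (SR) proteins, 9 genes of heterogeneous nuclear ribonucleoproteins (hnRNP), 21 of branch-point recognition, 14 of the tri-snRNP, 22 of the Prp19 complex and the catalytic stage, 12 of the cap, exon junction and TREX complexes, and 19 others. Of these, 116 had enough reads to be tested.

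The spliceosome removes introns from nascent transcripts. The snRNPs, each a small nuclear RNA wrapped in a ring of Sm or LSm proteins with a few specific partners, recognise the splice sites and the branch point and then form the catalytic centre. SR proteins bind exonic sequences and recruit the snRNPs, whereas hnRNP proteins coat nascent RNA and often act against exon inclusion, so the balance of the SR and hnRNP proteins is a classical setting of alternative splicing. In macrophages, alternative splicing contributes to the inflammatory response. Transcripts of many SR genes and of the CLK kinases that phosphorylate SR proteins are themselves spliced to forms that stay in the nucleus or are degraded, so a gene's read count is not a measure of its protein.

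Both groups are macrophages given a lentivirus for the receptor and cultured for 7 days in DMEM with M-CSF at 20 ng/mL, with skin as the labelled tissue. The CAR-Ms are labelled wild type. For the CAR-Trem2-Ms the genotype field reads TERM2+, and their own label adds an induction of 24 h with 1 µM VD3, followed by flow sorting. The shared protocol names VD3 too, so whether the CAR-Ms received it is not settled, and Trem2 status, sorting and possibly VD3 cannot be told apart. No label says that the replicates of a group are separate animals or cultures, and p-values then reflect only how much these samples vary, possibly for technical reasons. Libraries of CAR-Ms held 14204468 to 15913100 counts and those of CAR-Trem2-Ms 9804959 to 12558021. Trem2 itself, the gene behind the label, read 78.7, 74.1 and 77.0 CPM (read counts scaled to a common library size with TMM factors) across CAR-Ms, against 196.0, 195.1 and 182.5 across CAR-Trem2-Ms. A list of 10 macrophage markers summed to 3790 to 3811 CPM across CAR-Ms, against 4398 to 4432 CPM across CAR-Trem2-Ms. Of the 9 tested, 7 rose and 2 fell, Csf1r from 1264 to 862 CPM and Cd68 from 639 to 601 CPM (means). The other marker, Mertk, had at most 3 reads in any sample and was not tested. The lists of 7 other cell types summed to at most 28.1 CPM in any sample. The keratinocyte genes Krt5, Krt1, Krt10 and Trp63 had no read in any sample of either group.

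Several results below concern pairs of spliceosome genes so alike that the assignment of reads between them matters, and the coding sequences show how alike they are. Magoh and Magohb encode almost the same subunit of the exon junction complex, yet the first 90 aligned coding bases differ at 21 positions, shown here in capitals.
Magoh: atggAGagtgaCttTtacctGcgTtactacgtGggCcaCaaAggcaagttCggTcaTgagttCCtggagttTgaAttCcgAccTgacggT
Magohb: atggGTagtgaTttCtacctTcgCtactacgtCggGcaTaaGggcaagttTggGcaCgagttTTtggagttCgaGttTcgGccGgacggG
Over the whole coding sequence the identity was 81.3% of 438 aligned bases. Alyref and Alyref2, which encode the mRNA export adaptor of the TREX complex, are closer, with 92.3% identity over 651 aligned bases. Their mismatches are spread beyond the window shown here. It is the first 90 bases of their first gap-free aligned stretch of at least 90, and it holds 7 mismatches, again in capitals.
Alyref: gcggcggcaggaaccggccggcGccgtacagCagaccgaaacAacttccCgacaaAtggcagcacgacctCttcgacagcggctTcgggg
Alyref2: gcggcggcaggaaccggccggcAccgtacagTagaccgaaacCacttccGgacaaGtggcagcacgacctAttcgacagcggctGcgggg
Reads that fall between such mismatches cannot be assigned by sequence alone, so the values of Alyref2 are uncertain where the counting could have split reads.

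Promoters are shown for the member with the highest log2 fold change of the snRNP and SR classes and the lowest of the hnRNP class, among the 25 members whose window of 250 bases before the RefSeq start holds no annotated exon. The sequences are from RefSeq (GRCm38.p6), 5′ to 3′ on the gene's strand. Capitals mark matches, on either strand, to any of 6 motifs named with the promoter counts further on.
Snrnp70, chr7:45395743-45395992, minus strand: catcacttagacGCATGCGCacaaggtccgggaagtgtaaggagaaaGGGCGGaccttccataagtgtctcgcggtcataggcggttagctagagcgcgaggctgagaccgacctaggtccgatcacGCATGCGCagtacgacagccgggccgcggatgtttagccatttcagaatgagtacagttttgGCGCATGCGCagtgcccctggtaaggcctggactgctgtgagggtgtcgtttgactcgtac
Srsf6, chr2:162931258-162931507, plus strand: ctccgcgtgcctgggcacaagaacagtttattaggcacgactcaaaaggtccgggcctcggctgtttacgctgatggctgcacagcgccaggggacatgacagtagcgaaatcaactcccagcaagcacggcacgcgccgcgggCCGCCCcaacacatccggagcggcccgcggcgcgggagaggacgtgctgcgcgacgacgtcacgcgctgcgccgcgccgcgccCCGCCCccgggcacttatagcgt
Hnrnpu, chr1:178337816-178338065, minus strand: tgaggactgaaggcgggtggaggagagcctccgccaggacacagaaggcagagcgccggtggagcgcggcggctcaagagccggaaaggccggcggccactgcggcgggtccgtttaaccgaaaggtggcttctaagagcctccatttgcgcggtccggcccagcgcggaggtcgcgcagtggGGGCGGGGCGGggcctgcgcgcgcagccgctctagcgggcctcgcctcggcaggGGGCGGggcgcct
The Snrnp70 window holds 4 matches to the NRF1 motif GCATGCGC, a pair of them overlapping, and 1 GC box. That of Srsf6 holds 2 GC boxes, and that of Hnrnpu holds 3, of which a pair overlap.

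Of the 116 tested members, 39 rose and 65 fell in CAR-Trem2-Ms relative to CAR-Ms, and 12 did not pass edgeR's quasi-likelihood test at a Benjamini-Hochberg adjusted p under 0.05. Over all 11402 tested genes, 81.0% passed, 40.9% higher and 40.1% lower, so 33.6% of members rose and 56.0% fell against a background in which both directions were about equally frequent. A change of at least 2-fold was seen in 23 members, 9 higher and 14 lower (19.8%, against 33.0% of all tested genes). The replicates of the groups did not overlap in CPM for 100 members (86.2%, against 81.8% of all tested genes). The median log2 fold change of the members was -0.17, beside 0.03 over all genes. The share of all reads that fell on the members was 1.91, 1.90 and 1.90% across CAR-Ms, against 1.47, 1.49 and 1.49% across CAR-Trem2-Ms, and the groups did not overlap. All reads here include those of mitochondrially encoded genes, which took 4.60 to 4.70% across CAR-Ms and 13.4 to 13.8% across CAR-Trem2-Ms. How much of the lower share of the members follows from this was not tested. RNA from bulk samples does not tell fewer cells of a kind from less RNA per cell.

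These directions are relative to the scaling. On the TMM scale used throughout, the median gene of the whole table moved by 0.03 (log2), but by 0.26 with upper quartile factors, by -0.10 with total-count scaling, by -0.09 after offsets for GC content and length, and by -0.63 in limma on log2(TPM + 1), where TPM is the deposited, length-scaled value. The members' median was accordingly 0.06 with upper quartile factors, where the calls were 51 up and 46 down (50.1% and 31.6% of all genes there), and -0.86 on log2(TPM + 1), where the calls were 9 up and 93 down (17.5% and 64.1% of all genes there). With total-count scaling 34 were higher and 67 lower (36.4% and 44.6%), and with GC and length offsets 31 and 72 (35.8% and 43.8%), at medians of -0.29 and -0.39. On 6 scales together (TMM, RLE, upper quartile, total count, GC and length offsets, TPM), 46 members (39.7%) were called lower on every one, against 29.3% of all genes, and 9 (7.76%) higher on every one, against 15.9%. The 9 were Alyref2, Gm49396, Magohb, Pcbp1, Prpf40b, Snrnp70, Srsf2, Srsf5 and Srsf6. Mitochondrially encoded genes took 4.60 to 4.70% of reads across CAR-Ms, against 13.4 to 13.8% across CAR-Trem2-Ms, and 12.7 to 13.1% and 27.8 to 28.7% of TPM. Without these genes in the count fit, the counts were again 39 members higher and 65 lower.

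**Figure D1:**
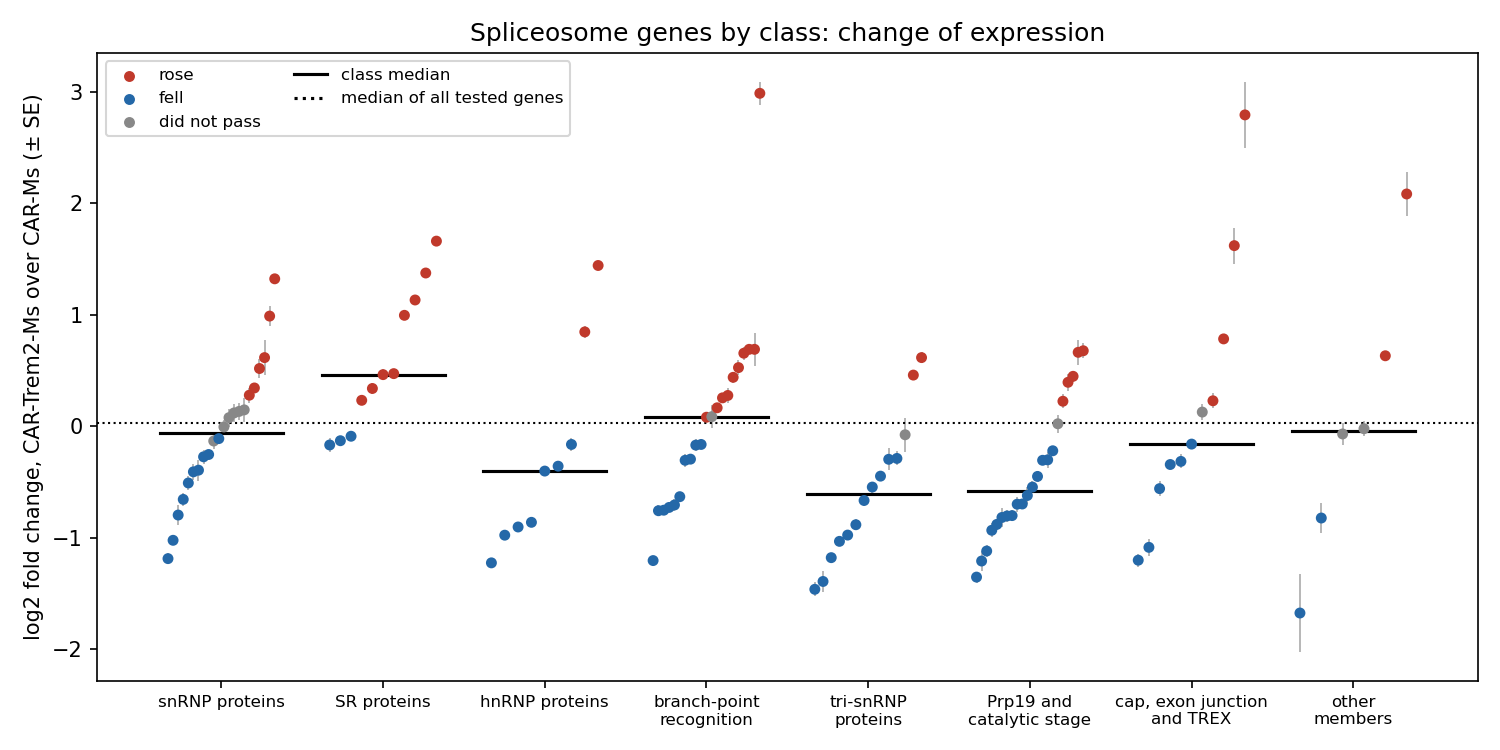
Log2 fold change (CAR-Trem2-Ms over CAR-Ms, TMM scale, vertical axis) of the 116 tested spliceosome genes by class, each point a gene with its SE, coloured by whether it rose, fell or did not pass. The class median (bar) is highest for SR proteins at 0.46 and lowest for the tri-snRNP at -0.61, and the dotted line marks the median of all tested genes, 0.03; on log2(TPM + 1) all class medians lie below 0.

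The snRNP class, taken as the members whose symbols start with Snrp, Snrnp or Lsm, had a median (-0.06) close to that of the whole table. Other snRNP proteins, such as Prpf8 and Prpf4, were counted in the tri-snRNP class, whose median was -0.61. Of the 22 tested genes of the snRNP class, 6 rose, 10 fell and 6 did not pass, a smaller share called (72.7%) than the 81.0% of all genes. With upper quartile factors the split was 12 higher and 6 lower, and with GC and length offsets it was 4 higher and 16 lower. The heptameric Sm ring, which is common to the U1, U2, U4 and U5 particles, gave 2 risers, 3 fallers and 2 that did not pass, with log2 fold changes from -0.51 (Snrpd1) to 0.52 (Snrpg). Since these 7 proteins assemble in equal numbers, their values are given together: Snrpg and Snrpf rose by 0.52 and 0.34 (but -0.18 and -0.37 on log2(TPM + 1)), Snrpe and Snrpd2 stood at 0.08 and -0.13 without passing, and Snrpb, Snrpd3 and Snrpd1 fell by 0.25, 0.27 and 0.51. On log2(TPM + 1), and also with GC and length offsets, none of the 7 was called higher and 6 were called lower. With upper quartile factors Snrpb and Snrpd3 stood at -0.02 and -0.04 without a call. Snrpf shares 65.9% of its exon bases with Ccdc38 on the opposite strand, and no source used here says that strand was used in counting.

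The LSm ring, which binds the tail of U6 RNA and in another form serves mRNA decay, gave 3 risers and 2 fallers of 7. Lsm7 read 21.2, 23.3 and 24.5 CPM across CAR-Ms, against 46.6, 48.0 and 42.6 CPM across CAR-Trem2-Ms, so its lowest CAR-Trem2-Ms sample stood above its highest CAR-Ms sample. The rise was 0.99 ± 0.09 (log2, SE; adjusted p = 5.4e-12, edgeR), but 0.16 without a call on log2(TPM + 1). Lsm3 went the other way, at 38.7, 39.4 and 40.4 CPM across CAR-Ms, against 22.0, 24.9 and 21.6 CPM across CAR-Trem2-Ms, and fell by 0.80 ± 0.09 (log2, SE). Lsm5 rose by 0.62 from means of 9.54 to 14.6 CPM, but its change was -0.20 on log2(TPM + 1) and -0.07 with GC and length offsets. Subunits of the same ring thus passed the test in opposite directions on the TMM scale, while 2 were higher and 4 lower with GC and length offsets, and 0 higher and 5 lower on log2(TPM + 1).

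Among proteins particular to one particle, the U1 and U2 snRNPs gave the extremes of the class. Snrnp70, which encodes the U1 protein that binds the first stem loop of U1 RNA and is the docking site of SR proteins on U1 (ENSMUSG00000063511, chromosome 7, 45376453 to 45395742, minus strand, GRCm38), read 158, 162 and 168 CPM across CAR-Ms, against 402, 412 and 408 CPM across CAR-Trem2-Ms. All CAR-Trem2-Ms samples were higher, and the mean went from 163 ± 5.30 to 407 ± 4.93 CPM, up 2.50-fold (± SD, n = 3 each; log2 1.32 ± 0.03 SE; adjusted p = 4.9e-28, edgeR). It was higher on all 6 scales. The other U1 genes did not follow: Snrpc, of the protein that steadies the U1 contact with the splice site, stood at -0.01 without passing, and Snrpa, of the protein on the other U1 stem loop, fell by 0.11 with overlapping replicates and stood at 0.12 with upper quartile factors. In the U2 snRNP, Snrpa1 (ENSMUSG00000030512, chromosome 7, 66059003 to 66074587, plus strand) read 166, 165 and 167 CPM across CAR-Ms, against 73.7, 77.7 and 68.1 CPM across CAR-Trem2-Ms. It fell by 1.19 ± 0.05 (log2, SE; adjusted p = 1.3e-21), and its RNA-binding partner Snrpb2 fell by 0.66. Snrnp200, the helicase that unwinds U4 from U6, read 325, 321 and 315 CPM across CAR-Ms, against 153, 157 and 163 CPM across CAR-Trem2-Ms, and fell by 1.02 ± 0.03 (log2, SE). Snrpa1, Snrpb2 and Snrnp200 were lower on all 6 scales.

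SR protein genes were the class with the highest median, 0.46. Of 11, 8 rose (72.7%) and 3 fell (27.3%), against 40.9% and 40.1% of all tested genes. All 3 members that rose at least 2-fold were canonical SR proteins. Srsf5 (ENSMUSG00000021134, chromosome 12, 80945504 to 80950507, plus strand) read 108, 102 and 98.7 CPM across CAR-Ms, against 329.7, 325 and 320.4 CPM across CAR-Trem2-Ms, up 3.16-fold (log2 1.66 ± 0.04 SE; adjusted p = 4.8e-29, edgeR). Srsf6 (ENSMUSG00000016921, chromosome 2, 162931528 to 162937121, plus strand) read 155, 163 and 156 CPM across CAR-Ms, against 398, 422 and 410.1 CPM across CAR-Trem2-Ms, up 2.59-fold. Srsf2 (ENSMUSG00000034120, chromosome 11, 116849901 to 116853094, minus strand), the SR gene with the highest mean CPM, read 219, 214 and 215 CPM across CAR-Ms, against 469, 460.2 and 491 CPM across CAR-Trem2-Ms, up 2.19-fold. In each of the 3 genes the groups were far apart and the call held on all 6 scales, although the rises on log2(TPM + 1) were smaller, at 0.96, 0.98 and 0.56. Exons of Srsf2 overlap those of Mettl23 and Mfsd11 on the opposite strand over 15.6% and 9.74% of its exon bases.

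Srsf7, of the SR protein with a zinc knuckle, rose from 91.0 ± 4.17 to 181 ± 1.81 CPM (log2 1.00), but its TPM barely differed (134 against 139). Srsf3, Srsf4, Tra2a and Srsf1 rose by 0.47, 0.46, 0.34 and 0.23, whereas on log2(TPM + 1) these were -0.38, -0.15, -0.30 and -0.07. Srsf10, a splicing repressor when dephosphorylated, read 182, 185 and 184 CPM across CAR-Ms, against 165, 168 and 171 CPM across CAR-Trem2-Ms. That fall of 0.13 ± 0.04 (log2, SE) separated the groups but turned to a rise of 0.10 with upper quartile factors and stood at 0.06 without a call with GC and length offsets. Tra2b and Srsf9 fell by 0.09 and 0.17 with overlapping replicates and stood at 0.14 and 0.06 with upper quartile factors. The count of fallers in the class was 1 without CAR-Trem2-Ms replicate 2. The median of the class was -0.15 on log2(TPM + 1), with 3 called up and 6 called down, still above the median of all genes on that scale.

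The hnRNP genes moved mostly the opposite way. Of 9, 7 fell (77.8%) and 2 rose (22.2%), against 40.1% and 40.9% of all tested genes, with a median of -0.40. Hnrnpk (ENSMUSG00000021546, chromosome 13, 58391142 to 58403343, minus strand), of a protein that binds cytosine-rich RNA, read 1117, 1090.5 and 1100.4 CPM across CAR-Ms, against 487, 454 and 471 CPM across CAR-Trem2-Ms. Its mean fell 2.34-fold (log2 -1.23 ± 0.02 SE; adjusted p = 1.5e-30, edgeR), and no sample of one group came near the other. Hnrnpu (ENSMUSG00000039630, chromosome 1, 178321108 to 178337797, minus strand), a nuclear scaffold protein, read 1206, 1226 and 1209 CPM across CAR-Ms, against 608, 616 and 624 CPM across CAR-Trem2-Ms, a fall of 0.98 ± 0.02 (log2, SE). Hnrnpc, which binds uridine tracts and covers cryptic exons, read 418, 407 and 399 CPM across CAR-Ms, against 226, 211 and 216 CPM across CAR-Trem2-Ms, a fall of 0.90 ± 0.03. Hnrnpa3, Hnrnpm and Hnrnpa1 fell by 0.86, 0.40 and 0.36, and these 6 genes were lower on all 6 scales. Hnrnpa1 had the highest TPM of the class in both groups (1235 and 562), followed in CAR-Ms by Hnrnpk at 1217, whose samples overlapped those of Hnrnpa1, and in CAR-Trem2-Ms by Hnrnpa3 at 342.

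Both risers of the hnRNP class are genes known to have arisen by retrotransposition. Over all tested genes with 1 exon, 72.9% rose, with a median log2 fold change of 1.28, so a rise like that of Pcbp1 was common among such genes. Pcbp1 (ENSMUSG00000051695, chromosome 6, 86524492 to 86526321, minus strand), an intronless gene of a poly(C)-binding protein, read 131, 143 and 135 CPM across CAR-Ms, against 353, 381 and 378 CPM across CAR-Trem2-Ms, up 2.72-fold (log2 1.44 ± 0.04 SE; adjusted p = 2.6e-27, edgeR), and the call held on all 6 scales. Rbmxl1, the autosomal relative of Rbmx, read 69.9, 63.4 and 72.5 CPM across CAR-Ms, against 127, 114 and 128 CPM across CAR-Trem2-Ms, up by 0.85 ± 0.06 (log2, SE), but stood at 0.16 without a call on log2(TPM + 1). Rbmx fell by 0.16 with overlapping replicates and turned to 0.07 with upper quartile factors.

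**Figure D2:**
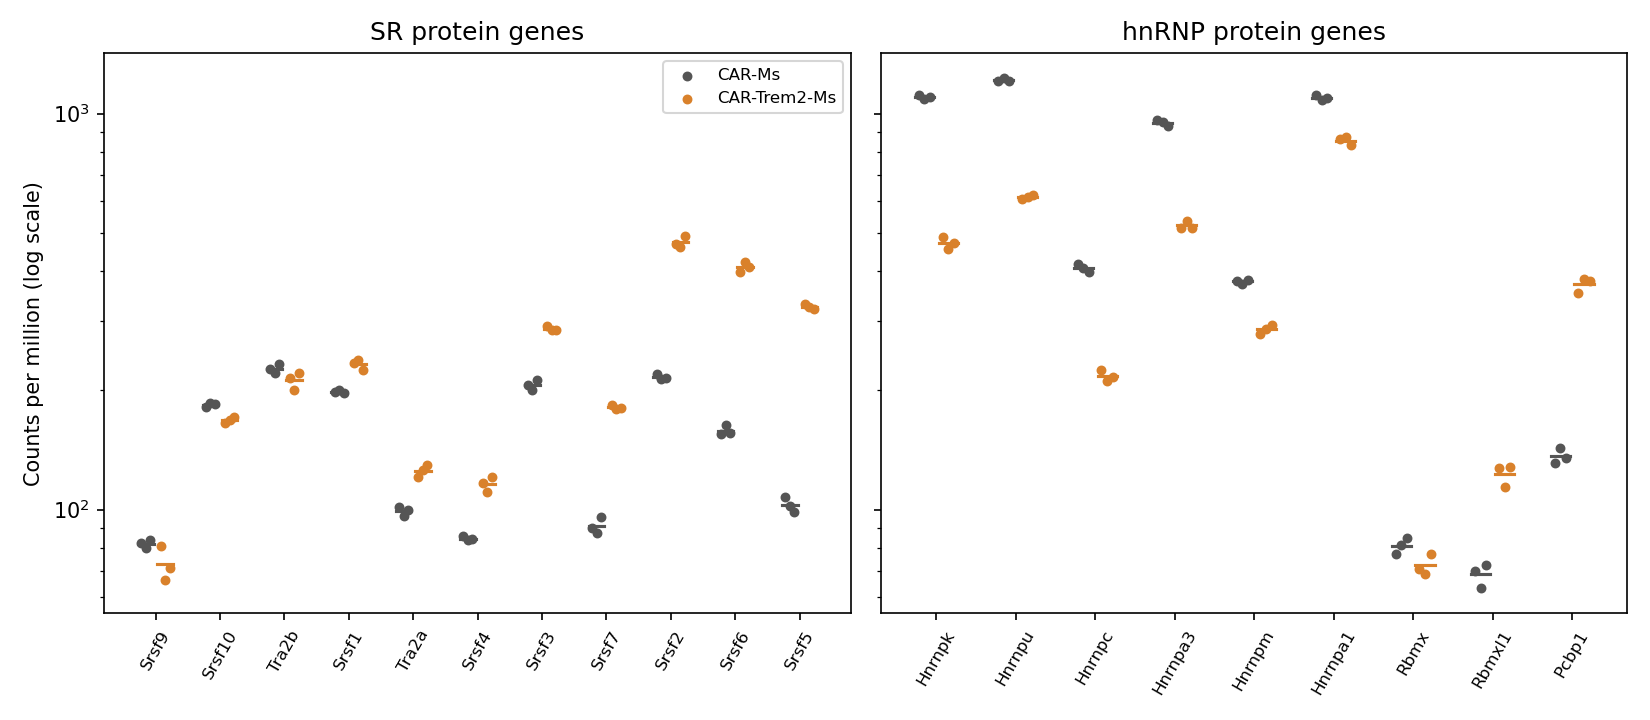
CPM (log axis) of the 11 SR and 9 hnRNP genes, ordered by log2 fold change, with 1 point per sample and a bar at each group mean. The CAR-Trem2-Ms points of Srsf5, Srsf6, Srsf2 and Pcbp1 lie above those of CAR-Ms and the CAR-Trem2-Ms points of Hnrnpk, Hnrnpu, Hnrnpc and Hnrnpa3 below, on all 6 scales for these genes, while Srsf9, Tra2b and Rbmx overlap.

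Because both classes were measured in the same libraries, their ratio does not depend on a scaling factor. Reads on SR genes divided by reads on hnRNP genes gave 0.302, 0.301 and 0.307 across CAR-Ms, against 0.739, 0.729 and 0.743 across CAR-Trem2-Ms. The same ratio of summed TPM, which takes transcript length into account, was 0.297, 0.291 and 0.2998 across CAR-Ms, against 0.792, 0.787 and 0.796 across CAR-Trem2-Ms. The spread within a group was thus far smaller than the gap between groups on both measures. With 3 samples against 3, an exact permutation test cannot go below 0.10, so no p is given. The ratio of SR to snRNP reads moved from 0.836, 0.827 and 0.845 to 1.42, 1.38 and 1.37. That of snRNP to hnRNP reads moved from 0.362, 0.365 and 0.363 to 0.519, 0.529 and 0.542. The ordering of the medians, SR above snRNP above hnRNP, held with TMM, upper quartile, total-count and TPM values. With GC and length offsets, however, the hnRNP median (-0.33) lay above that of the snRNP class (-0.43), with SR at 0.65. The snRNP class, here and in the ratios, leaves out the proteins counted as tri-snRNP. Per length, the median TPM of a gene was 131 and 125 for the SR class in CAR-Ms and CAR-Trem2-Ms, 133 and 76.9 for the snRNP class and 459 and 202 for the hnRNP class, beside 23.1 and 13.8 over all tested genes. SR transcripts had a median GC content of 41.6% and hnRNP transcripts of 44.1%, beside 49.8% over all genes.

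**Figure D3:**
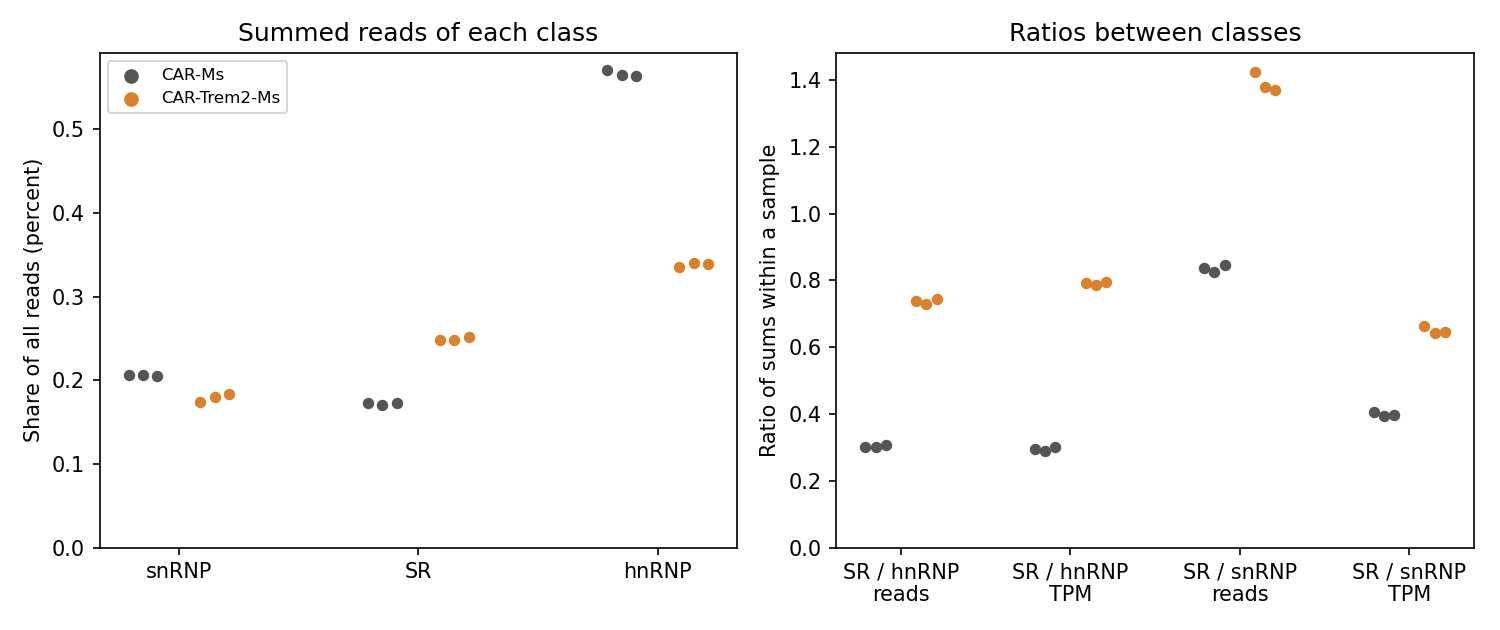
Left, share of all reads (percent), mitochondrial reads included, on the genes of the snRNP, SR and hnRNP classes in each of the 6 samples. Right, ratios of the class sums within a sample, in reads and in TPM. Points are samples; the SR to hnRNP ratio of reads goes from 0.301 to 0.307 in CAR-Ms to 0.729 to 0.743 in CAR-Trem2-Ms.

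Genes outside the pathway annotation that work on or beside these classes were read from the same fit. Of 8 tested kinases of SR proteins, 5 rose (62.5%) and 2 fell (25%), against 40.9% and 40.1% of all tested genes. Clk1, which phosphorylates SR proteins in the nucleus, read 93.9 to 98.4 CPM across CAR-Ms and 196.0 to 205.9 CPM across CAR-Trem2-Ms, up by 1.06 ± 0.04 (log2, SE), and Clk4 and Clk2 rose by 0.97 and 0.67. Dyrk1a, a kinase of nuclear speckles, read 225, 219 and 215 CPM across CAR-Ms, against 57.3, 62.5 and 62.7 CPM across CAR-Trem2-Ms, a fall of 1.85 ± 0.05. Of 18 further splicing factors and related genes, not all of them rich in serine and arginine, 11 rose (61.1%) and 5 fell (27.8%). The largest rise was that of Ccnl2, a cyclin of the CDK11 kinases in nuclear speckles, which read 48.4, 46.1 and 50.3 CPM across CAR-Ms, against 239, 242 and 238 CPM across CAR-Trem2-Ms, a rise of 2.31 ± 0.04, and Rbm6 fell the most, by 0.61. On log2(TPM + 1), Clk1 and Ccnl2 stood at 0.33 and 1.67 and kept their calls, while Clk4 and Clk2 stood at 0.10 and 0.0039 and did not pass. The balance of calls turned in both lists on that scale. There 1 kinase was higher and 5 were lower (median -0.51, against 0.23 with TMM). Of the further factors 3 were higher and 13 lower (-0.54, against 0.22). Both medians still lay above that of all genes on that scale, -0.63, where 17.5% of genes were higher and 64.1% lower.

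Of 31 further hnRNP genes and RNA-binding regulators, 23 fell (74.2%) and 8 rose (25.8%), with a median of -0.49. Over all tested genes 40.1% fell and 40.9% rose. Ptbp3, a polypyrimidine tract binding protein, read 315, 331 and 322 CPM across CAR-Ms, against 127, 127 and 109.9 CPM across CAR-Trem2-Ms, a fall of 1.41 ± 0.04 (log2, SE). Its relatives Ptbp1 and Ptbp2 fell by 1.14 and 1.40, as did Elavl1 (by 1.29), Celf1 (by 1.11) and Celf2 (by 1.17). Taf15, which encodes an RNA-binding protein, was the largest riser, by 1.14 ± 0.04. Hnrnpa0, an intronless hnRNP gene, rose by 0.98, as did 72.9% of all tested genes with 1 exon, at a median of 1.28. The list's median was -0.25 with upper quartile factors, where 11 were higher and 19 lower, and also -0.25 with GC and length offsets.

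The machinery that builds snRNPs fell more often than it rose, with 11 fallers (61.1%) and 4 risers (22.2%) of 18. Over all tested genes 40.1% fell and 40.9% rose. Kpnb1, the importin that carries assembled snRNPs and many other cargoes into the nucleus, read 921, 916 and 925 CPM across CAR-Ms, against 317, 317 and 323 CPM across CAR-Trem2-Ms, a fall of 1.53 ± 0.02 (log2, SE). Gemin4, of the SMN complex that loads Sm rings, rose by 0.98 ± 0.10, as did Gemin7 (by 0.93, but 0.07 without a call with GC and length offsets), whereas Gemin6 and Gemin5 fell by 0.91 and 0.60. Of 11 genes of the minor spliceosome, which removes the rare U12-type introns, 5 rose (45.5%) and 4 fell (36.4%). With GC and length offsets 3 were higher and 6 lower, and on log2(TPM + 1) 1 was higher and 8 lower. Snrnp35, the U11/U12 counterpart of Snrnp70, read 2.16, 2.65 and 3.23 CPM across CAR-Ms, against 15.7, 14.7 and 15.4 CPM across CAR-Trem2-Ms, a rise of 2.50 ± 0.19 at low counts, and Rbm48 fell by 1.06.

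Branch-point recognition, by the SF3A and SF3B complexes of U2 and the U2AF and U1-bridging proteins, gave 10 risers and 10 fallers of 21 and a median of 0.08. Each share was 47.6%, against 40.9% higher and 40.1% lower over all tested genes. The balance of the class moved with the scale, to 11 higher and 6 lower with upper quartile factors (median 0.31), 7 and 10 with total-count scaling (-0.04), 5 and 12 with GC and length offsets (-0.19), and 1 and 17 on log2(TPM + 1) (-0.81). Prpf40b, which encodes a U1-associated protein thought to bridge the splice sites, had the largest rise of all members. It read 7.75, 6.63 and 8.04 CPM across CAR-Ms, against 59.3, 54.9 and 63.3 CPM across CAR-Trem2-Ms, up 7.94-fold (log2 2.99 ± 0.11 SE; adjusted p = 2.6e-23, edgeR). The call held on all 6 scales.

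Within the SF3 complexes the subunits moved apart. Sf3b1, the subunit that clamps the branch-point helix and the gene of the class with the highest mean CPM, read 389, 389 and 405 CPM across CAR-Ms, against 424, 420.2 and 407 CPM across CAR-Trem2-Ms. Its call, at 0.08 ± 0.03, was lost without CAR-Ms replicate 1 (0.06, adjusted p = 0.071), CAR-Ms replicate 2 (0.06, 0.094) or CAR-Trem2-Ms replicate 1 (0.07, 0.051), in DESeq2 (0.06, 0.062) and with no filter (0.04, 0.23), and its value was -0.81 on log2(TPM + 1). Sf3b3, its partner in the same complex, fell by 0.73, and Sf3a1 read 155, 159 and 153 CPM across CAR-Ms, against 84.8, 95.5 and 96.3 CPM across CAR-Trem2-Ms, a fall of 0.76 ± 0.05. Sf3a2 rose by 0.53 and Sf3b5 by 0.28, while these were -0.19 and -0.39 on log2(TPM + 1) and Sf3a2 was -0.18 with GC and length offsets. Sf3b2, Sf3b6, Sf3a3 and Sf3b4 fell by 0.30, 0.31, 0.17 and 0.16, but stood at -0.06, -0.07, 0.06 and 0.07 with upper quartile factors, none of them called. U2af2, the large U2AF subunit, which reads the polypyrimidine tract, rose by 0.25 but stood at -0.43 on log2(TPM + 1) and -0.12 with GC and length offsets. U2af1l4, a relative of the small subunit, rose by 0.69, but it shares 65.6% of its exon bases with the readthrough gene model Gm49396 on the same strand, and its change was -0.08 on log2(TPM + 1) and -0.05 with GC and length offsets. U2surp, a U2-associated SR-like protein, read 207, 207 and 200.2 CPM across CAR-Ms, against 123, 118 and 123 CPM across CAR-Trem2-Ms, a fall of 0.75 ± 0.04.

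The tri-snRNP, which brings U4, U6 and U5 to the assembling complex, had the lowest median of the classes, -0.61. Of 14 genes, 11 fell (78.6%) and 2 rose (14.3%), against 40.1% and 40.9% of all tested genes. Of the 14, 9 (64.3%) were lower on all 6 scales, against 29.3% of all genes. Prpf8 (ENSMUSG00000020850, chromosome 11, 75486816 to 75509449, plus strand), the scaffold of the catalytic core, read 747, 763 and 755 CPM across CAR-Ms, against 339, 315 and 344 CPM across CAR-Trem2-Ms, a fall of 1.18 ± 0.03 (log2, SE; adjusted p = 2.2e-28, edgeR). Its U5 partner Eftud2, a GTPase, fell by 1.03, which sets it beside Snrnp200 at -1.02. Prpf4, of the U4/U6 particle, read 101, 101 and 105 CPM across CAR-Ms, against 35.4, 34.7 and 40.6 CPM across CAR-Trem2-Ms, a fall of 1.46 ± 0.06 and the largest of the class. Txnl4a, a small U5 protein, read 57.3, 57.9 and 61.5 CPM across CAR-Ms, against 25.7, 23.4 and 18.3 CPM across CAR-Trem2-Ms, a fall of 1.39 ± 0.09, and shares 10.1% of its exon bases with Naa12 on the same strand. Prpf31, Usp39, Prpf6, Prpf3 and Snu13 fell by 0.98, 0.88, 0.67, 0.55 and 0.45. The risers were Sart1, which rose by 0.62, and Prpf38b, which rose by 0.46, and both were negative on log2(TPM + 1), at -0.06 and -0.22.

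The Prp19 complex and the proteins of the catalytic stage likewise had more fallers than risers, with a median of -0.58. Of 22 genes, 16 fell (72.7%) and 5 rose (22.7%), against 40.1% and 40.9% of all tested genes. Of the 22, 13 (59.1%) were lower on all 6 scales, against 29.3% of all genes. Aqr, the helicase of the intron-binding complex, read 187, 176 and 185 CPM across CAR-Ms, against 74.7, 73.6 and 66.0 CPM across CAR-Trem2-Ms, a fall of 1.35 ± 0.05 (log2, SE; adjusted p = 4.1e-23, edgeR). Ppil1, a prolyl isomerase of the activated spliceosome, read 64.1, 62.1 and 63.8 CPM across CAR-Ms, against 23.9, 33.4 and 25.5 CPM across CAR-Trem2-Ms, a fall of 1.21 ± 0.09. Cdc40, which is needed for exon ligation, read 123, 125 and 126 CPM across CAR-Ms, against 59.4, 55.7 and 56.8 CPM across CAR-Trem2-Ms, a fall of 1.12 ± 0.05. In all 3 genes each CAR-Trem2-Ms sample lay below each CAR-Ms sample. The other exon-ligation factors Slu7 and Prpf18 fell by 0.81 and 0.62.

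Within the Prp19 core, Prpf19, its ubiquitin ligase, read 236, 237 and 243 CPM across CAR-Ms, against 196, 197 and 187 CPM across CAR-Trem2-Ms, a fall of 0.31 ± 0.03 that was -0.02 without a call after GC and length offsets. Cdc5l and Plrg1 fell by 0.88 and 0.45. Bcas2, which sits in the same core, rose from 90.3 ± 1.29 to 123 ± 3.15 CPM (SD, n = 3 each; log2 0.45), and Xab2, which sits beside Aqr in the intron-binding complex, rose by 0.68. Isy1, another protein of that complex, fell by 0.70. Ccdc12 rose by 0.66. The rises of Bcas2, Xab2 and Ccdc12 did not hold on log2(TPM + 1), where they were -0.25, -0.01 and -0.03. Snw1 fell by 0.80, and 44.2% of its exon bases overlap Slirp on the opposite strand, which itself changed by 1.14.

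The cap-binding, exon junction and TREX genes, which mark spliced mRNA for export, gave 4 risers (36.4%) and 6 fallers (54.5%) of 11 tested. Over all tested genes 40.9% rose and 40.1% fell. Acin1, of the ASAP complex at the exon junction, read 154, 154 and 153 CPM across CAR-Ms, against 265, 251 and 277 CPM across CAR-Trem2-Ms, a rise of 0.78 ± 0.04 that was -0.38 on log2(TPM + 1). Thoc3, of the THO core of TREX, read 72.8, 69.2 and 65.8 CPM across CAR-Ms, against 34.9, 27.7 and 34.6 CPM across CAR-Trem2-Ms, a fall of 1.09 ± 0.08. Thoc2 and the large cap-binding subunit Ncbp1 fell by 0.32 and 0.34, although Thoc2 stood at 0.18 with GC and length offsets. Ncbp2 stood at 0.13 without passing, and Thoc1 rose by 0.23 (-0.24 on log2(TPM + 1)), with 24.3% of its exon bases shared with Usp14 on the opposite strand.

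Paralogue pairs, and the order of the genes in a pair, were chosen after their values had been seen. A direction shared by the pairs therefore carries no weight. Other relatives moved together, such as Ptbp1, Ptbp2 and Ptbp3, which all fell, and Clk1 and Clk4, which both rose. In each of the first 5 given here the first-named gene was called lower and the second, its relative, higher on the TMM scale. The replicates of Rbmx and Tra2b overlapped between groups, and both genes were positive with upper quartile factors. In the pair Prpf38a and Prpf38b the relative held most of the reads in both groups. The share of a pair's reads that falls on the relative is free of library scaling, though not of the assignment of reads between near copies. Of the reads on Magoh and Magohb, the pair printed above, Magohb took 7.16, 6.42 and 8.59% across CAR-Ms, against 27.5, 26.0 and 26.3% across CAR-Trem2-Ms. Here Magoh, a core subunit of the exon junction complex, fell from 66.9 ± 0.404 to 45.5 ± 3.89 CPM while Magohb rose from 5.34 ± 0.848 to 16.4 ± 0.786 CPM (SD, n = 3 each), by 0.56 and 1.62 on the log2 scale, and both calls held on all 6 scales.

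Of the reads on Alyref and Alyref2, Alyref2 took 1.23, 0.851 and 0.811% across CAR-Ms, against 11.6, 13.3 and 15.5% across CAR-Trem2-Ms. Alyref fell from 109 ± 3.78 to 47.4 ± 2.97 CPM, while Alyref2, a copy with a single exon, rose from 1.06 ± 0.251 to 7.38 ± 1.06 CPM, and both calls held on all 6 scales. The low level of Alyref2 and the 92.3% identity of the pair limit what its reads can show. A rise was also common among all tested genes with 1 exon (72.9%). Of the reads on Rbmx and Rbmxl1, whose coding sequences are 90.9% identical, Rbmxl1 took 47.5, 43.9 and 46.0% across CAR-Ms, against 64.2, 62.4 and 62.3% across CAR-Trem2-Ms. The pairs given so far moved toward the second-named gene, a direction that depends on how the pairs were chosen and ordered. Of the reads on Tra2b and Tra2a (66.7% identity), Tra2a took 31.0, 30.3 and 30.0% across CAR-Ms, against 35.9, 38.5 and 36.9% across CAR-Trem2-Ms. Of those on Prpf38a and Prpf38b (68.6% identity), Prpf38b took 85.7, 82.7 and 81.1% across CAR-Ms, against 90.6, 88.0 and 89.2% across CAR-Trem2-Ms. In these 5 pairs no CAR-Trem2-Ms sample overlapped a CAR-Ms sample, whereas for Thoc2l, the copy of Thoc2, the samples overlapped at 28.0, 26.0 and 28.1% across CAR-Ms, against 32.1, 32.6 and 28.0% across CAR-Trem2-Ms. The pair Rbm8a and Rbm8a2 (97.7% identity) went the other way, since Rbm8a2 took 0.107, 0.413 and 0.230% across CAR-Ms, against 0.0521, 0 and 0.0561% across CAR-Trem2-Ms. Rbm8a2 had at most 11 reads in a sample and was not tested, and the sample with 0 reads allows a share of up to 0.211%, which reaches into the range of CAR-Ms.

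**Figure D4:**
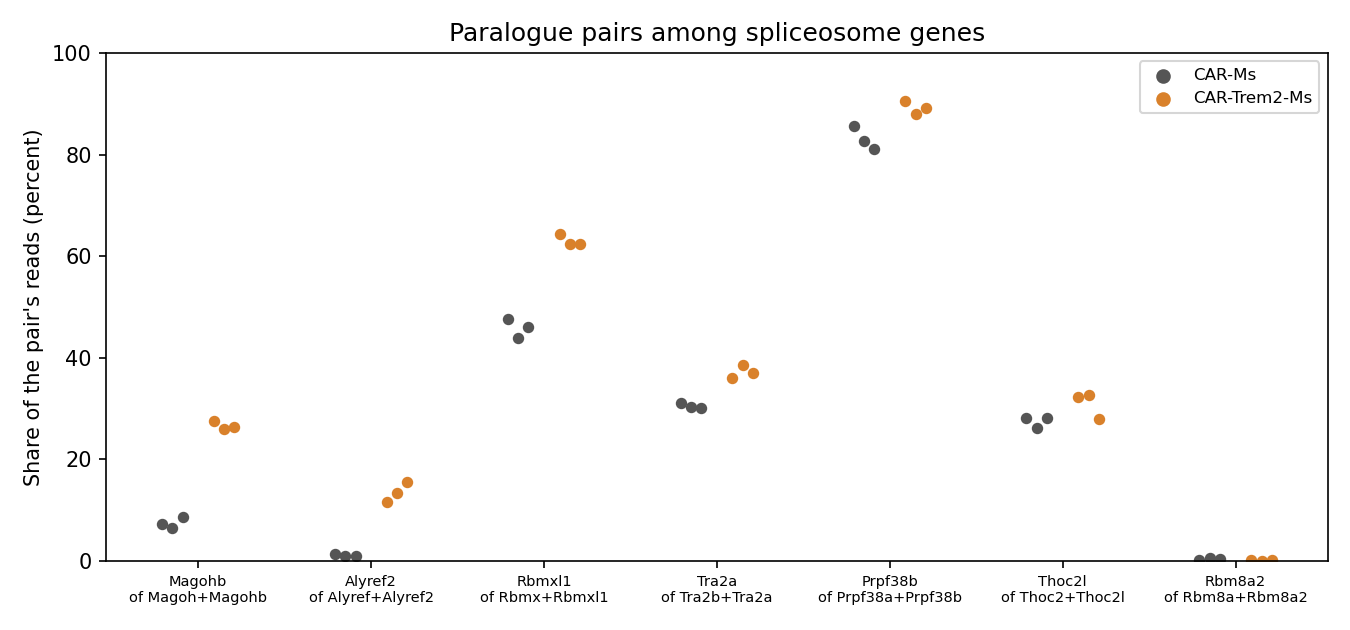
Share (percent) of the reads on a paralogue pair that fell on the named relative, 1 point per sample. The relative's share is higher in every CAR-Trem2-Ms sample for the first 5 pairs, for example 26.0 to 27.5% against 6.42 to 8.59% for Magohb, overlaps for Thoc2l and is lower, near 0, for Rbm8a2; these shares carry no library scaling.

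Among the remaining members, Gm49396 read 2.43, 3.14 and 3.10 CPM across CAR-Ms, against 11.7, 11.6 and 13.6 CPM across CAR-Trem2-Ms, a rise of 2.08 ± 0.20, and shares 39.2% of its exon bases with Igflr1 and 33.6% with U2af1l4, so the source of its reads is uncertain. Gm45140 fell by 1.68 ± 0.35, shares 80.9% of its exon bases with Rab43 and 14.5% with Isy1, and lost its call with a replicate block (adjusted p = 0.057). Gm7879 fell by 0.82 ± 0.13. Rp9 and Thoc2l did not pass. The 14 members that were not tested are 13 predicted genes and Rbm8a2, a copy of Rbm8a, and 11 of them had no read in any sample, which allows up to 0.0672 CPM (3 counts over the group) across CAR-Ms and 0.0867 CPM across CAR-Trem2-Ms, by counting error alone. The most reads that any of the 14 had in a sample was 11. In all, 23 of the 116 tested members have exons that overlap those of another tested gene, 14 of them over more than 10% of their exon bases.

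TPM divides reads by a length, so the ratio of reads to TPM follows the length behind each TPM value. The log2 of this ratio, relative to the median gene of the library, was compared with limma. A call needed an adjusted p under 0.05 and a difference of at least 0.3, a limit set after the values were seen, and no source used here says how TPM was computed. Of 114 members, 6 (5.26%) were called, 3 higher and 3 lower, against 226 of 9264 genes (2.44%). Rbm25, of a U1-associated regulator of alternative splicing, had the largest difference. Its relative reads per TPM were -0.33, -0.35 and -0.36 across CAR-Ms, against 0.38, 0.37 and 0.39 across CAR-Trem2-Ms, a difference of 0.73 ± 0.01 (log2, SE; limma, adjusted p = 0.00015), and the call was kept when each of the 6 samples was left out in turn. Its reads rose by 0.69 while its TPM went from 236, 246 and 238 TPM across CAR-Ms to 137, 149.7 and 139.9 TPM across CAR-Trem2-Ms, a change of -0.75 on log2(TPM + 1).

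For Srsf6 the relative reads per TPM were -0.14, -0.16 and -0.11 across CAR-Ms, against -0.48, -0.46 and -0.47 across CAR-Trem2-Ms, a difference of -0.33 ± 0.01 (adjusted p = 0.0039, limma). For Srsf1 they were -0.0043, 0.01 and -0.10 across CAR-Ms, against -0.44, -0.43 and -0.46 across CAR-Trem2-Ms, a difference of -0.41 ± 0.03 (adjusted p = 0.012, limma). Both calls were kept when each sample was left out in turn, and in both the CAR-Trem2-Ms samples lay close together below all CAR-Ms samples. Prpf18 and Acin1 differed by 0.45 ± 0.03 and 0.44 ± 0.05. The call on Prpf18 was lost without CAR-Ms replicate 2 (0.45, adjusted p = 0.056) or replicate 3 (0.45, 0.053), and that on Acin1 was kept only without CAR-Trem2-Ms replicate 3, with differences from 0.42 to 0.48. Snrpd3 differed by -0.58 ± 0.09, and its call was lost whichever sample was left out, with differences from -0.63 to -0.49.

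**Figure D5:**
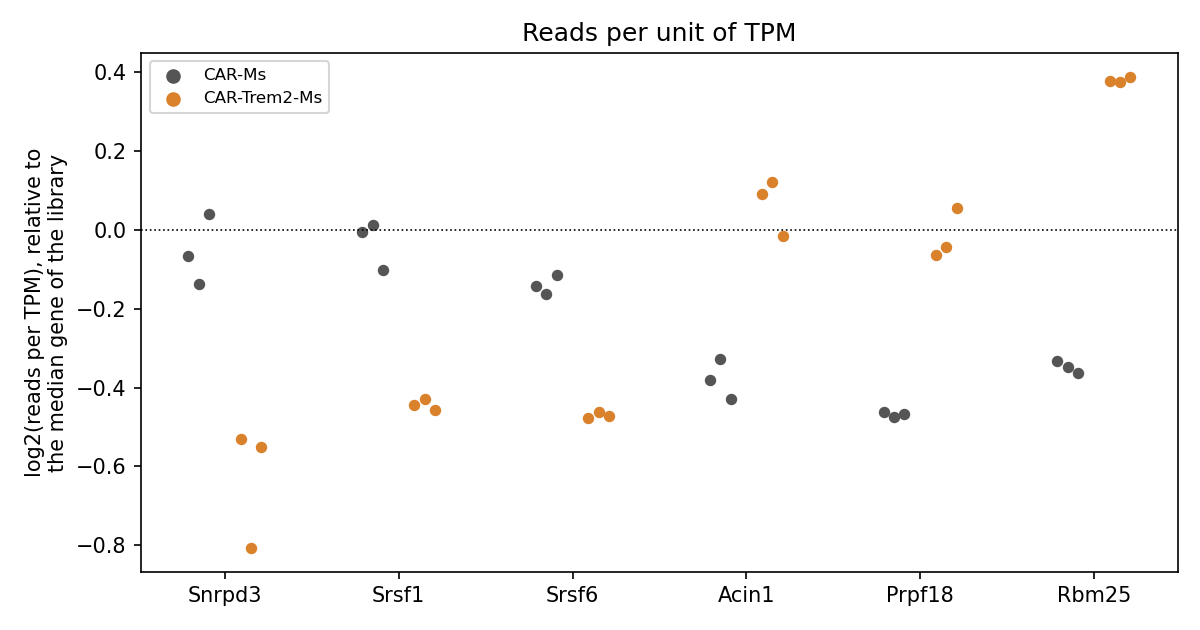
Log2 of reads per unit of TPM, relative to the median gene of each library (vertical axis), for the 6 members called in that comparison, 1 point per sample. Rbm25 lies at -0.36 to -0.33 in CAR-Ms, against 0.37 to 0.39 in CAR-Trem2-Ms, and Srsf1 and Srsf6 lie lower in CAR-Trem2-Ms.

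Promoter windows of 250 bases before the RefSeq start were found for 93 of the 130 members, 109 windows in all, and were searched on both strands for 6 motifs as plain letters. The ETS motif CCGGAAG was in 33.0% of member windows, in 14.3% of the windows of tested genes and in 6.91% of all windows. By direction it was in 35.0% of windows of members that rose and 35.2% of those that fell. The GC box GGGCGG was in 53.2% of member windows and 57.7% of those of tested genes. By gene it was in 10 of 11 SR genes, Srsf6 with the window printed above among them, and in 5821 of 9054 tested genes. CCAAT was in 42.2% of member windows and 36.0% of those of tested genes, and in 6 of 9 hnRNP genes, beside 3770 of 9054 tested genes. The CRE motif TGACGTCA was in 5.50% and 2.62%, and the heat shock motif GAANNTTC in 8.26% and 5.04%. The NRF1 motif GCATGCGC was in 5.50% of member windows and 4.50% of those of tested genes. By gene it was in 4 of 31 members that rose, Snrnp70 among them, in 0 of 48 that fell and in 485 of 9054 tested genes. These member counts are small, and the difference by direction was not tested. A match describes the letters of the window and not a bound site.

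Transcript length and base composition differed between classes. Across the 116 tested members, Spearman's rho of the log2 fold change was -0.21 with transcript length and 0.11 with GC content, and across 11382 genes it was -0.31 and 0.28, as descriptions of genes that share the same 6 libraries. Markers of other cell types also moved with the groups. The 5 B cell markers summed to 10.9 to 16.9 CPM across CAR-Ms, against 3.43 to 4.46 CPM across CAR-Trem2-Ms, and all 5 fell. The 8 neutrophil markers summed to 15.8 to 28.1 CPM and 2.30 to 5.53 CPM, with 4 of 4 tested lower and Ly6g and Elane at 0 in CAR-Trem2-Ms. The 8 T and NK cell markers summed to 1.08 to 1.45 CPM and 5.72 to 10.7 CPM, with 3 of 4 tested higher and Ncr1 at 0 in both groups. The 8 fibroblast markers summed to 2.47 to 3.03 CPM and 4.93 to 6.06 CPM. The 5 endothelial markers summed to 4.40 to 6.47 CPM and 2.01 to 3.29 CPM, and the 6 dendritic cell markers summed to 2.16 to 2.53 CPM and 2.73 to 4.10 CPM. The 6 keratinocyte markers summed to at most 1.15 CPM in any sample. The part of these markers in the spliceosome values was not tested.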

How the data were processed

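RNA sequencing was done on 3 CAR-Ms and 3 CAR-Trem2-Ms samples. The authors deposited one table with raw read counts, whole numbers that sum to another total in each sample. Its TPM columns, per the file headers, are values that the authors scaled for length within a library. The deposited log2 fold change, p-value and FDR columns were not used. The tools in the submitters' processing notes are StringTie 1.3.1, HISAT2, Bowtie2 2.2.8 and fastp 0.18.0, with mm10 as the genome. No source used here gives the counting tool, its use of strand or the annotation.

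Counts were fitted with edgeR 4.0.16 (R 4.3.3, with TMM factors, filterByExpr and robust quasi-likelihood) over all 11402 genes that passed the filter. Benjamini-Hochberg adjustment was over all of them, and calls were made at an adjusted p under 0.05. The SE of an edgeR log2 fold change is its size divided by the square root of the test's F statistic, and was not estimated separately. TPM was tested with limma 3.58.1 on log2(TPM + 1) for genes with at least 1 TPM in 3 samples, and reads per TPM over genes with at least 50 reads. Alternatives were RLE, upper quartile and total-count scaling, no or stricter filters, DESeq2 1.42.0, limma-voom, length offsets, GC with length offsets (added after seeing the data, like reads per TPM), a replicate block and leaving out each sample. Simulated data were used to test the main edgeR fit, the replicate block, the length offsets, limma on log2(value + 1) and the reads-per-TPM comparison. The other alternatives were not tested in this way. Gene positions and overlaps are from GENCODE M21 (GRCm38), promoters from RefSeq.

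Members, classes and lists were chosen with earlier results of these data known. In each class the genes named are up to 3 called rises and 3 falls of the largest size whose higher group averaged 50 reads or more and whose groups did not overlap, and the gene of highest mean CPM; in lists outside the pathway, 1 of each; all snRNP, SR and hnRNP genes may be named, and other named genes were chosen after their values were seen. Some genes that this rule picks are not reported here. Intervals and floors cover counting error only.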

Additional observations from a re-analysis of the deposited data

How the results depend on the processing

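The members' counts of 39 higher and 65 lower were 38 to 40 and 61 to 65 when each sample was left out, and the whole table's were 4497 to 4674 and 4412 to 4575. The same ranges were 6 to 7 and 9 to 10 for snRNP genes, 8 and 1 to 3 for SR genes, and 2 and 6 to 7 for hnRNP genes. Same-numbered samples did not deviate together (r = 0.03, -0.03 and 0.03), so the numbers were not taken to pair them; with a replicate block 39 members were higher and 64 lower (4627 and 4555 of all genes). In limma on log2(TPM + 1) and log2(TPM + 0.1), 1890 and 1881 genes were higher and 6940 and 6929 lower, with 9 and 9 members higher, 1 and 1 snRNP genes higher and 18 and 18 lower, 3 and 3 SR genes higher and 6 and 6 lower, and 1 and 1 hnRNP gene higher. At least 2-fold changes numbered 2131 higher and 1626 lower, 9 and 14 of the members, 1 and 2 of the snRNP, 3 and 0 of the SR, and 1 and 1 of the hnRNP genes, by construction of the limit. Upper quartile factors gave 12 snRNP genes higher and 6 lower and 0 SR genes lower; length offsets gave 3 and 16 snRNP genes; GC with length offsets gave 16 snRNP genes and 1 SR gene lower. The cause of these shifts was not tested.

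Medians changed sign for all members (0.063) and the snRNP class (0.17) with upper quartile factors, and for the SR class in limma on TPM (-0.15 and -0.16 at the pseudocounts of 1 and 0.1). The branch-point median of 0.08 became -0.044 with total-count scaling, -0.19 with GC and length offsets, -0.32 with length offsets and -0.81 on log2(TPM + 1), and that of the export genes went from -0.16 to 0.072 with upper quartile factors. Of the 53 tested genes picked by size or level under the naming rule, 38 kept call and direction in every setting. Of these 53, 12 changed sign in at least 1 setting, none of them when a sample was left out. Other genes named in the text are not in this count, and several of them also changed sign, as given with their values. On TPM, at those pseudocounts, the values were -0.38 and -0.38 for Acin1, -0.25 and -0.25 for Bcas2, -0.028 and -0.029 for Ccdc12, -0.20 and -0.20 for Lsm5, -0.22 and -0.22 for Prpf38b, -0.75 and -0.75 for Rbm25, -0.064 and -0.066 for Sart1, -0.81 and -0.82 for Sf3b1, -0.082 and -0.084 for U2af1l4, and -0.0066 and -0.0068 for Xab2. Length offsets gave -0.16 for Lsm5, 0.0012 for Prpf19 and -0.0067 for U2af1l4, and GC with length offsets gave -0.073 for Lsm5, 0.065 for Srsf10 and -0.050 for U2af1l4. Total-count scaling gave -0.044 for Sf3b1, and upper quartile factors gave 0.10 for Srsf10. Depth limits the genes of few reads, such as Alyref2 and Snrnp35.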

Other observations

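Members whose gene model has a single exon were compared with all such genes after their values were seen. Of 7 members with 1 exon, 3 were tested (Alyref2, Pcbp1 and Sf3b5) and all 3 rose. Over all genes with 1 exon that were tested, 180 of 247 (72.9%) rose and 20 (8.10%) fell, with a median log2 fold change of 1.28, beside 40.2% risers and a median of 0.01 over the 11073 tested genes with introns. Among members with introns, 35 of 111 (31.5%) rose and 65 (58.6%) fell.

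The genes left out of the set by symbol, among them the DEAD-box and DEAH-box helicases that drive each rearrangement of the spliceosome, were also read. Of 15 tested, 7 rose (46.7%) and 8 fell (53.3%), against 40.9% and 40.1% of all tested genes, with a median of -0.17.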
